A study of Equus caballus with 17 samples.

Results

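The 5 microRNAs (miRNAs) eca-miR-135a, eca-miR-211, eca-miR-873, eca-miR-708 and eca-miR-1298 were followed through horse (Equus caballus) testis development and into sperm. They were picked by name, from earlier results of these data, for levels that fall from infant to later testis. They are 5 of the 274 annotated mature miRNAs of the deposited table, and the prefix eca- (horse) is left out from here on. Their levels in the testis stages are therefore given as a description with no test, and tests are kept for sperm and for miRNAs related to the 5 by family or by gene neighbourhood. The sperm tests of the 5 use Adult libraries that the choice used, and a return of some in sperm was known. These tests are therefore no independent evidence of that return. The study sequenced small RNA from testis at 4 stages, which the labels call Infant (n = 3), Pre-puber (n = 3), Puber (n = 3) and Adult (n = 4), and from Sperm (n = 4). No genotype, treatment or breed is given in the labels, and the samples are named by stage and title number. Infant 31a and 31b share a title number, as do Pre-puber 3a and 3b, and the labels do not say whether each pair came from 1 animal. Nor do they say that the other libraries came from separate animals, so p-values measure the spread between these libraries, which may be technical.

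A miRNA is a short RNA that guides silencing proteins to messenger RNAs, which it recognises mainly through its seed, a short stretch near its start. miRNAs with the same seed are expected to share many targets, even where they are made from different genes. Many miRNAs are cut from introns of longer genes. Infant testis holds Sertoli cells, interstitial cells and spermatogonia but no meiotic cells. Meiosis begins around puberty, after which germ cells make up most of the organ, and in bulk tissue fewer cells of a type and less RNA per cell cannot be told apart.

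The genes of the 5 miRNAs lie apart from each other. In the RefSeq gene table (assembly TB-T2T, used for names and neighbours only) all 12 precursors of the 5 miRNAs and their listed relatives were found. miR-135a has a pair of precursors, one inside GLYCTK, a glycerate kinase gene, and one inside the unnamed gene LOC106782711 between NEDD1 and TMPO. The pair of table entries for miR-135a held 30413 and 30221 counts over all libraries (a ratio of 0.994), nearly equal, so the locus of origin cannot be told apart. miR-211 lies inside TRPM1, an ion channel gene of pigment cells and retina. miR-708 lies inside TENM4, which encodes a teneurin adhesion protein. miR-873 lies inside LINGO2, a neural membrane protein gene that also holds miR-876. miR-1298 lies on the X chromosome inside HTR2C, a serotonin receptor gene, with the genes of miR-764, miR-1912, miR-1264, miR-1911 and miR-448.

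Counts of annotated miRNAs were 9534925 to 12373245 in the Infant libraries, 8108537 to 13117711 in Pre-puber, 3958857 to 6037880 in Puber, 2178789 to 4618707 in Adult and 1481718 to 2261418 in Sperm. Levels are annotated counts scaled to a common library total (counts-per-million, CPM) after TMM scaling of all 17 libraries together. TMM is a scaling that gives each library a factor, on the assumption that most miRNAs do not differ between libraries. As a check of the stage labels, 4 miRNAs known from meiotic and later germ cells (miR-34b-5p, miR-34c, miR-449a and miR-449b) summed to 16.5 to 45.9 CPM in Infant, 11500 to 20980 CPM in Puber, 35080 to 52930 CPM in Adult and 89620 to 232000 CPM in Sperm. Pre-puber 3a held 41.4 CPM, Pre-puber 3b held 74.1 CPM, and Pre-puber 14, at 2609 CPM, stood apart.

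Together the 5 miRNAs held 0.155 to 0.209% of annotated counts in Infant, 0.0505 to 0.108% in Pre-puber, 0.0511 to 0.108% in Puber, 0.0402 to 0.0840% in Adult and 0.0323 to 0.121% in Sperm. They were thus minor miRNAs at every stage, with miR-1298 and miR-135a in places 50 and 51 by Infant mean and miR-873 in place 107. All Pre-puber libraries lay below all Infant libraries for each of the 5, where this held for 19.6% of the 184 miRNAs tested in testis. All Puber libraries lay below Infant for 4 of the 5 (background 21.7%), the exception being miR-1298. All Adult libraries lay below Infant for 4 of the 5 (background 24.5%), the exception being miR-708. These counts follow from how the miRNAs were picked. The summed level of 3 stromal miRNAs (miR-145, miR-199a-5p and miR-199b-5p) was 30820 to 44270 CPM in Infant, 24930 to 34820 CPM in Pre-puber, 21730 to 28940 CPM in Puber and 12360 to 17830 CPM in Adult. Within that list the mean of miR-199a-5p was 27180 CPM in Infant and 8735 CPM in Adult. That of miR-199b-5p was 7364 CPM in Infant and 1648 CPM in Adult. miR-145 went the other way, with means of 3456 CPM in Infant and 5016 CPM in Adult. The part of stromal cells in the levels of the 5 miRNAs was not tested.

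**Figure D1:**
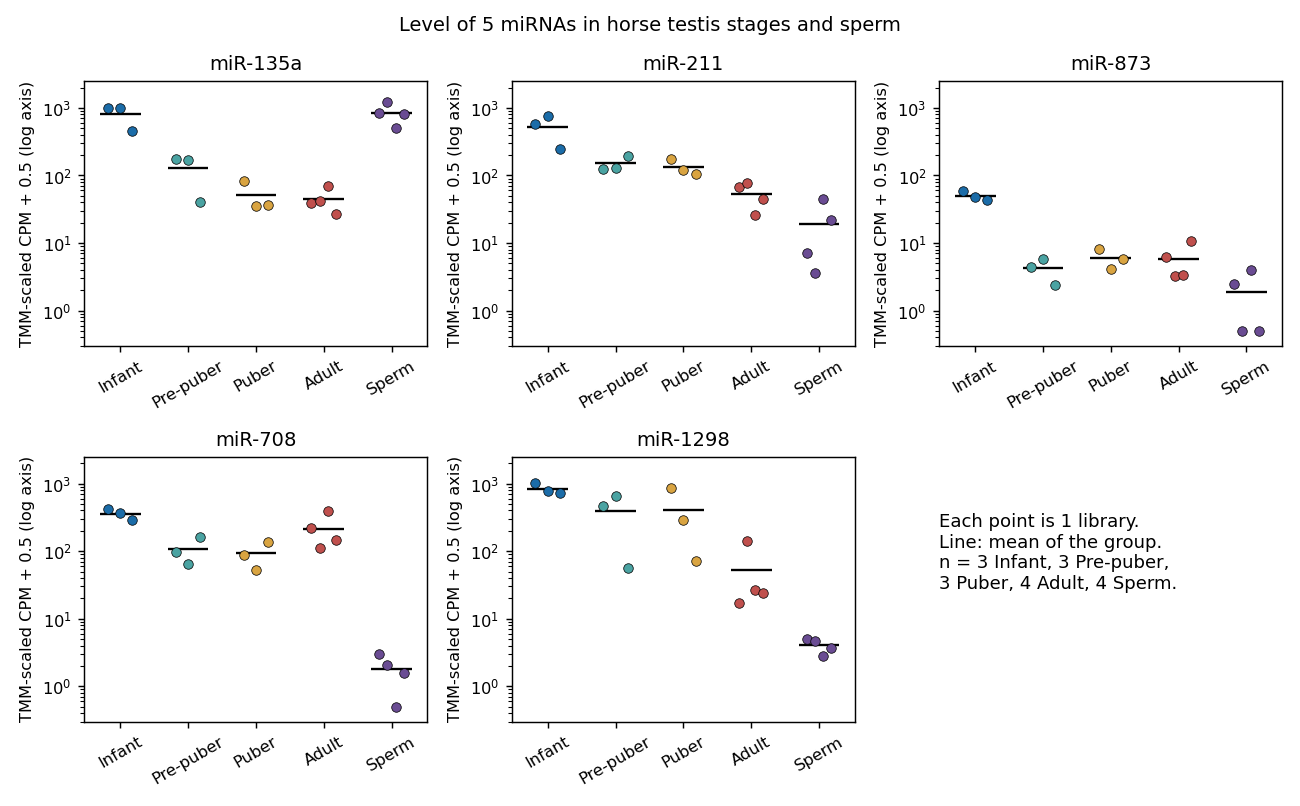
Level of each of the 5 miRNAs in every library, as TMM-scaled CPM plus 0.5 on a log axis, by stage; points are libraries and lines are group means (n = 3 Infant, 3 Pre-puber, 3 Puber, 4 Adult, 4 Sperm). miR-135a is high in Infant and again in Sperm (means 812 and 840 CPM), while the others have their highest mean in Infant and their lowest in Sperm. Their Sperm means are 1.29 CPM (miR-708), 3.57 CPM (miR-1298), 1.38 CPM (miR-873) and 18.9 CPM (miR-211).

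miR-135a, which in the rat has been linked to the maintenance of spermatogonial stem cells, stood at 999.5, 986 and 449 CPM in Infant 31a, 31b and 30. In Pre-puber it was at 174 (3a), 171 (3b) and 40.3 CPM (14), at 82.1, 34.7 and 36.0 CPM in Puber 10, 11 and 19, and at 39.2, 41.2, 68.4 and 26.2 CPM in Adult 13, 20, 33 and 4. The step from Infant to Pre-puber was thus the main one, and the Pre-puber, Puber and Adult libraries overlapped in sequence. In Sperm 1, 2, 3 and 4 it was at 831, 1211, 508 and 810 CPM. Every Sperm library lay above every Pre-puber, Puber and Adult library, and the Sperm and Infant libraries overlapped. The means ran from Sperm (840 ± 288 CPM) and Infant (812 ± 314 CPM), which differed by less than their spread, through Pre-puber (128 ± 76.2 CPM) to Puber (51.0 ± 27.0 CPM) and Adult (43.8 ± 17.7 CPM), whose libraries overlapped between neighbours. By level it stood in place 51 in Infant, 112 in Adult and 49 in Sperm.

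miR-873, made beside miR-876, was already low in Pre-puber and was low in all later groups. It stood at 57.5, 47.1 and 42.6 CPM in Infant 31a, 31b and 30 and at 3.97 (3a), 5.24 (3b) and 1.89 CPM (14) in Pre-puber. It was at 7.78, 3.57 and 5.27 CPM in Puber 10, 11 and 19 and at 5.63, 2.77, 2.89 and 10.3 CPM in Adult 13, 20, 33 and 4. All 10 later testis libraries lay below the Infant ones and overlapped among themselves, with means of 3.70 ± 1.69, 5.54 ± 2.12 and 5.39 ± 3.52 CPM in Pre-puber, Puber and Adult, against 49.0 ± 7.63 CPM in Infant. These levels rest on 123, 90 and 124 counts per group, against 1146 in Infant. In Sperm it had 4, 0, 3 and 0 counts in libraries 1, 2, 3 and 4, and a count of 0 allows up to 1.57 CPM in Sperm 2 and 1.92 CPM in Sperm 4 before TMM scaling.

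miR-211, known from pigment cells where it is made with TRPM1, went down in steps. It stood at 578, 751 and 245 CPM in Infant 31a, 31b and 30, at 126 (3a), 128 (3b) and 197 CPM (14) in Pre-puber, and at 175, 120 and 106 CPM in Puber 10, 11 and 19. Pre-puber and Puber overlapped, with means of 150 ± 40.4 and 134 ± 36.1 CPM. It was at 66.3, 76.8, 25.1 and 44.4 CPM in Adult 13, 20, 33 and 4, below every Puber library. In Sperm 1, 2, 3 and 4 it was at 6.51, 3.16, 44.3 and 21.5 CPM, which rest on 13, 6, 38 and 20 counts. Sperm 3 lay within the Adult range and the other Sperm libraries lay below it.

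miR-1298 was still high in some Pre-puber and Puber libraries, and the libraries of these stages lay far apart. It stood at 1014, 787 and 728 CPM in Infant 31a, 31b and 30 and at 473 (3a), 652 (3b) and 55.3 CPM (14) in Pre-puber. In Puber 10, 11 and 19 it was at 860, 293 and 70.8 CPM. Puber 10 lay within the Infant range and Pre-puber 14 below every Puber library, so these stages overlapped widely (393 ± 306 CPM in Pre-puber and 408 ± 407 CPM in Puber). In Adult 13, 20, 33 and 4 it was at 16.7, 142, 26.5 and 23.4 CPM, and in Sperm 1, 2, 3 and 4 at 4.51, 4.21, 2.33 and 3.23 CPM (9, 8, 2 and 3 counts). Adult 20 lay far above the other Adult libraries; without it the log2 ratio of the Adult to the Infant mean was -5.25 in place of -4.01. The summed level of germ cell markers was 2609 CPM in Pre-puber 14, where miR-1298 was low, and 11500 CPM in Puber 10, the lowest of the Puber libraries, where miR-1298 was high. It was 20980 and 19390 CPM in Puber 11 and 19, and the part of germ cell content in the level of miR-1298 was not tested.

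miR-708, which lies inside TENM4 and is known in the mouse to be induced in endoplasmic reticulum stress, went against the description of a loss before adulthood. It stood at 414, 373 and 286 CPM in Infant 31a, 31b and 30, at 98.0 (3a), 64.4 (3b) and 160 CPM (14) in Pre-puber, and at 88.2, 52.4 and 137 CPM in Puber 10, 11 and 19. In Adult 13, 20, 33 and 4 it was at 219, 111, 386 and 147 CPM. Adult 33 lay within the Infant range, and the Adult mean of 216 ± 122 CPM was 60.4% of the Infant mean, where the Pre-puber mean was 30.1% and the Puber mean 25.9%. Without Adult 33 the log2 ratio of the Adult to the Infant mean was -1.17 in place of -0.73. Without TMM scaling the Adult mean lay above the Infant mean, with a log2 ratio of 0.29 in place of -0.73, while the median fitted log2 change of all miRNAs tested was 0.82 in place of -0.14. In the order of the 184 miRNAs by the ratio of Adult to Infant mean, lowest first, miR-708 was in place 64, while miR-135a, miR-1298, miR-211 and miR-873 were in places 2, 3, 6 and 7. In Sperm 1, 2, 3 and 4 it had 5, 3, 0 and 1 counts, and the count of 0 allows up to 2.02 CPM in Sperm 3 before scaling.

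**Figure D2:**
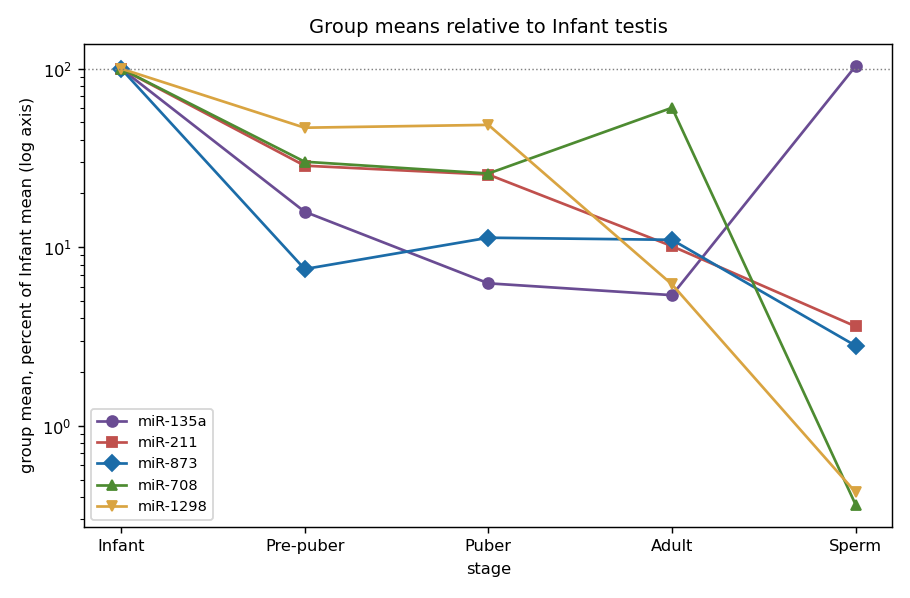
Mean of each group as a percent of the Infant mean, on a log axis, for the 5 miRNAs. By Pre-puber the means were at 7.54 (miR-873) to 46.7% (miR-1298) of Infant, miR-708 was at 60.4% in Adult, and in Sperm miR-135a was at 103.5% while the others were at 0.361 to 3.60%.

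In the same order of Adult to Infant ratios, only the first 10 miRNAs outside the 5 are named here. miR-9156 was in place 1, with 0.0745 CPM in Adult and 10.1 CPM in Infant, miR-337-5p in place 4 and miR-675 in place 5. They were followed by miR-885-5p, miR-299, miR-542-5p, miR-99a, miR-224, miR-335 and miR-26a in places 8 to 14. Other miRNAs stood between these and miR-708, in place 64. By Pearson's r of log2 levels over the 17 libraries, among 165 miRNAs, each of the 5 had different nearest miRNAs. miR-135a was most like miR-335 (r = 0.94), miR-155 (0.86) and miR-324-5p (0.84), which also had high means in Infant and in Sperm. For miR-335 they were 388 CPM in Infant, 70.6 CPM in Adult and 345 CPM in Sperm. miR-211 was most like miR-99a (0.94), miR-10b (0.90) and miR-125b-5p (0.89), and miR-873 most like miR-361-5p (0.84), miR-337-5p (0.82) and miR-154a (0.82). miR-1298 was most like miR-379 (0.93), miR-411 (0.93) and miR-218 (0.92), and miR-708 most like miR-374a (0.96), miR-497 (0.95) and miR-145 (0.94). The last 3 also had low means in Sperm (13.8, 1.48 and 7.36 CPM), against 1077, 320 and 5016 CPM in Adult. Their means were 1489, 334 and 3456 CPM in Infant and 1032, 322 and 4908 CPM in Puber. None of them fell from Infant to Puber as steeply as miR-708. Among the 5 themselves, r was 0.68 to 0.84 for the 6 pairs without miR-135a and -0.47 to 0.03 for its pairs. These coefficients are descriptions, since the libraries share scaling and fall into stages.

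The comparison of Sperm with Adult testis sets the mature germ cells beside the organ that makes them. Per the labels, RNA from sperm had a shorter DNase treatment than RNA from testis, so tissue and RNA preparation cannot be told apart. The Adult libraries were also used in picking the miRNAs followed here, whose p-values below are therefore no independent evidence. miR-135a rose in Sperm, at 840 ± 288 CPM (SD, n = 4) against 43.8 ± 17.7 CPM in Adult (n = 4), by a log2 fold change of 5.07 ± 0.55 (SE, adjusted p = 3.76e-12). miR-708 fell to 1.29 ± 1.04 CPM in Sperm, against 216 ± 122 CPM in Adult (log2 fold change -6.33 ± 0.72, adjusted p = 1.36e-11), and miR-1298 to 3.57 ± 0.99 CPM in Sperm, against 52.2 ± 60.1 CPM in Adult (-3.05 ± 0.63, adjusted p = 1.93e-05). For these 3 the Sperm and Adult libraries did not overlap. Of the 162 miRNAs tested, Sperm lay wholly above Adult for 29.6% and wholly below for 45.1%, so this is near the background. The fold changes come from a fit scaled separately from the CPM shown. The log2 ratios of the CPM means are 4.26 for miR-135a, -7.39 for miR-708 and -3.87 for miR-1298. miR-211 was at 18.9 ± 18.7 CPM in Sperm and 53.1 ± 23.1 CPM in Adult and was not called (-1.02 ± 0.56, adjusted p = 0.0875), but it passed the threshold under 8 of 16 alternatives, among them without Sperm 3 (-1.71, adjusted p = 0.0132), and the adjusted p ranged from 0.00062 to 0.266. miR-873 did not pass the filter on low counts in this fit, at 1.38 ± 1.70 CPM in Sperm and 5.39 ± 3.52 CPM in Adult.

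These tests are edgeR quasi-likelihood F tests over 162 miRNAs in the 8 libraries, with Benjamini-Hochberg adjustment. They called 81.5% of the miRNAs, 42.0% higher (68 miRNAs) and 39.5% lower (64), so 1 of the 4 tested miRNAs being higher and 2 lower is near the background of this comparison. The Sperm libraries lay above the Adult ones for 29.6% and below them for 45.1%. The 5 miRNAs were picked on testis levels, the Adult libraries included, so low Adult levels, and with them a higher Sperm, are favoured by the choice. That some of them return in sperm was known when they were picked, and the tests are no independent evidence of it. With 81.5% called, the assumption behind TMM is in doubt for this comparison. Leaving out TMM scaling gave 36 higher and 86 lower and moved the median log2 change of all miRNAs to -1.61 from 0.06. The log2 change of miR-135a was then 3.40, and 5.01 above the median under both scalings. That of miR-708 was -8.03, which is -6.42 relative to the median against -6.39 with TMM. Without Adult 20, the Adult library with the fewest counts, the log2 fold changes were 4.47 for miR-135a, -7.13 for miR-708 and -2.33 for miR-1298, while the median of all miRNAs moved to -0.51. Relative to that median they were 4.98, -6.62 and -1.82, against 5.01, -6.39 and -3.11 with all 8 libraries.

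**Figure D3:**
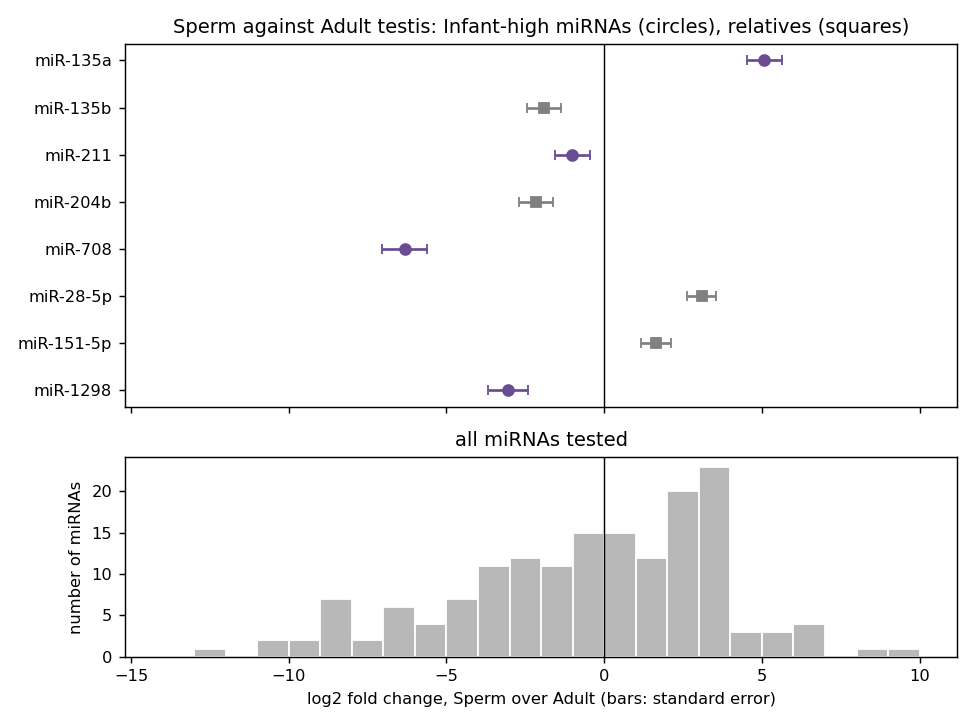
Upper panel, log2 fold change of Sperm over Adult testis with its standard error for the 4 tested Infant-high miRNAs (circles) and 4 tested relatives (squares); lower panel, the same for all 162 miRNAs tested, in steps of 1. miR-135a (5.07) and miR-28-5p (3.10) lie above 0 and miR-708 (-6.33) and miR-135b (-1.91) below it.

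By log2 fold change miR-135a was in place 9 of 162 from the top and miR-708 in place 18 from the bottom. The largest rises among other miRNAs were those of liver miR-122 (16500 ± 6478 CPM in Sperm, 36.8 ± 15.2 CPM in Adult), epithelial miR-205 (547 ± 395 CPM in Sperm, 1.72 ± 0.376 CPM in Adult) and neural miR-124 (61.5 ± 27.3 CPM in Sperm, 0.720 ± 0.763 CPM in Adult). The largest falls were those of miR-514a, miR-509a-5p (6.33 ± 3.41 CPM in Sperm, 17150 ± 3512 CPM in Adult) and miR-450b-5p (2.55 ± 3.09 CPM in Sperm, 4340 ± 550 CPM in Adult). miR-514a had 0 counts in all Sperm libraries and 312 ± 133 CPM in Adult. Markers of other cells were set beside these values. miR-205, the one listed marker of the epithelial list, ranged from 275 to 1128 CPM in Sperm and from 1.34 to 2.23 CPM in Adult. The 6 neural markers summed to 912 to 1513 CPM in Sperm and 532 to 1033 CPM in Adult, which overlap. Within that list miR-9a averaged 1207 CPM in Sperm and 380 CPM in Adult, while miR-218 (59.3 CPM in Sperm, 178 CPM in Adult), miR-129a-5p (26.6 CPM in Sperm, 125.5 CPM in Adult) and miR-138 (0.777 CPM in Sperm, 18.9 CPM in Adult) had lower means in Sperm. The 4 blood markers summed to 1005 to 3518 CPM in Sperm and 891 to 4548 CPM in Adult, which also overlap. Adult 33 held the 4548 CPM, and Adult 13, the next highest, 1113 CPM. Within that list miR-451 averaged 1150 CPM in Sperm and 308 CPM in Adult. Lower means in Sperm were those of miR-486-5p (1078 CPM, 1257 CPM in Adult), miR-150 (27.7 CPM, 79.0 CPM in Adult) and miR-142-5p (143 CPM, 237 CPM in Adult). No neural or blood marker was at 0 over all Sperm or all Adult libraries, while miR-124 had 0 counts in Infant and in Puber. The 3 stromal markers summed to 45.1 to 115 CPM in Sperm and 12360 to 17830 CPM in Adult, and endothelial miR-126-5p ranged from 25.3 to 43.1 CPM in Sperm and from 265 to 640 CPM in Adult. The part of such cells in the levels of miR-135a and miR-708 was not tested. The lists for gonadal soma and striated muscle matched no annotated name and were not used here.

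Of the relatives looked for, 6 were listed: miR-135b, miR-204b, miR-28-5p, miR-151-5p, miR-876-5p and miR-764-5p. miR-135b, which lies inside LEMD1 and BLACAT1, has the seed of miR-135a. miR-204b, inside the TRPM3 channel gene, has the seed of miR-211, and miR-28-5p, inside LPP, that of miR-708. miR-151-5p, inside PTK2, belongs to the precursor family of miR-28 and miR-708. Containing genes were found by position, and strands were not compared. Members of such pairs are similar in sequence and the counting program is not given in the sources used here, so some reads may have been assigned to the wrong member of a pair.

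In testis no tested relative was called against Infant by edgeR, in Pre-puber, Puber or Adult (0 of 4 each, where edgeR called 23.9%, 36.4% and 51.6% of 184 miRNAs). At an unadjusted p under 0.05 there were 1, 0 and 1, DESeq2 called 0, 0 and 1, and limma-voom 0 in each. Without TMM scaling 1, 1 and 2 were called higher, and with all entries in the fit 1 was higher in Pre-puber and 3 were lower in Puber and in Adult. Over all alternatives the number called was 0 to 1 in Pre-puber and 0 to 3 in Puber and in Adult. In Adult against Infant, miR-135b was at 571 ± 267 CPM in Adult (n = 4) and 896 ± 358 CPM in Infant (n = 3; log2 fold change -0.66 ± 0.40, adjusted p = 0.18). miR-28-5p was at 618 ± 137 CPM in Adult and 582 ± 111 CPM in Infant (0.07 ± 0.33, adjusted p = 0.859), and miR-151-5p at 345 ± 67.7 CPM in Adult and 433 ± 182 CPM in Infant (-0.35 ± 0.35, adjusted p = 0.424). miR-204b was at 910 ± 402 CPM in Adult and 394 ± 107 CPM in Infant (1.22 ± 0.54, adjusted p = 0.0756), and was called higher under 5 of 18 alternatives (adjusted p 0.00603 to 0.281), among them without Adult 33 (1.39, adjusted p = 0.0322). The neighbour of miR-873, miR-876-5p, had 16, 13 and 1 counts in Infant 31a, 31b and 30, 1 count over the Pre-puber libraries, 2 over Puber, 3 over Adult and 0 over Sperm, and did not pass the filter on low counts. Without that filter edgeR called it lower than in Infant in Pre-puber (adjusted p = 0.0245) and in Adult (adjusted p = 0.0463) but not in Puber (adjusted p = 0.0578). These calls rest mainly on Infant 31a and 31b, which share a title number and may be 1 animal. Adult 4 (0.45 CPM) lay above Infant 30 (0.12 CPM). The neighbour of miR-1298, miR-764-5p, had 0 counts in all 17 libraries, which allows up to 0.229 CPM in the deepest and 2.02 CPM in the shallowest before scaling.

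In Sperm against Adult miR-135b and miR-28-5p took the opposite direction to their same-seed partners. miR-135b fell, at 60.1, 183, 38.5 and 50.6 CPM in Sperm 1, 2, 3 and 4 and 463, 534, 953 and 335 CPM in Adult 13, 20, 33 and 4 (log2 fold change -1.91 ± 0.54, adjusted p = 0.00104), while miR-135a rose. miR-28-5p rose, at 1881, 2875, 6774 and 2200 CPM in Sperm and 671, 433, 757 and 611 CPM in Adult (3.10 ± 0.46, adjusted p = 2.1e-08), while miR-708 fell. For both the libraries did not overlap, where Sperm lay wholly above Adult for 29.6% of miRNAs tested and wholly below for 45.1%. As the fit was scaled separately, the log2 ratios of the CPM means differ, at -2.78 for miR-135b and 2.47 for miR-28-5p. miR-204b fell, at 44.1, 31.6, 332 and 182 CPM in Sperm and 1109, 1018, 318 and 1196 CPM in Adult (-2.16 ± 0.55, adjusted p = 0.000316), and Sperm 3 lay within the Adult range. miR-151-5p rose (1.63 ± 0.47, adjusted p = 0.00136), but without TMM scaling its log2 change was -0.05, and it was not called with RLE scaling (0.95, adjusted p = 0.058) or with all entries (0.37, adjusted p = 0.437). Single libraries moved some of these values: without Sperm 2 the log2 fold change of miR-135b was -2.83, without Sperm 3 that of miR-204b was -2.76, and without Adult 20 those of miR-135b and miR-28-5p were -2.56 and 2.51 (-2.05 and 3.02 relative to the median, against -1.97 and 3.04 with all 8 libraries).

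The ratio of each miRNA to its same-seed relative within 1 library does not depend on scaling between libraries. The miRNAs followed here were picked for their fall after Infant, so falls of these ratios in testis follow in part from the choice. A return of some of the picked miRNAs in sperm was also known. There were 13.8, 6.60, 13.0 and 15.8 counts of miR-135a per count of miR-135b in Sperm 1, 2, 3 and 4, against 0.0848, 0.0775, 0.0718 and 0.0785 in Adult 13, 20, 33 and 4. In Infant 31a, 31b and 30 the ratio was 1.06, 0.802 and 0.869, in Pre-puber it was 0.0643 to 0.141 and in Puber 0.0361 to 0.0699. The pair was thus even in Infant, mostly miR-135b in later testis and mostly miR-135a in Sperm, where miR-135a was 91.8 ± 3.33% of the pair's counts (n = 4), against 7.23 ± 0.45% in Adult (n = 4). The log2 ratio was 7.23 higher in Sperm than in Adult. The summed level of the pair was 923 ± 350 CPM in Sperm, 615 ± 285 CPM in Adult and 1708 ± 656 CPM in Infant, and the ranges of the 3 groups overlapped.

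For miR-708 and miR-28-5p the ratio went the other way. miR-708 had 0.732, 0.532 and 0.595 counts per count of miR-28-5p in Infant 31a, 31b and 30, 0.129 to 0.144 in Pre-puber, 0.0858 to 0.163 in Puber and 0.241 to 0.511 in Adult. The Adult libraries lay above every Pre-puber and Puber library and below every Infant library, so miR-708 was higher in Adult than in Pre-puber and Puber relative to miR-28-5p, with no scaling between libraries. In Sperm, miR-708 was 0.0592 ± 0.055% of the pair's counts, against 24.5 ± 6.57% in Adult, and the log2 ratio differed by -9.33. This rests on 5, 3, 0 and 1 counts of miR-708 in Sperm, so its size depends on the 0.5 added to counts. It was -8.90 with 1 added in place of 0.5, and -8.49 without Sperm 3. The pair's summed level was 3434 ± 2265 CPM in Sperm and 834 ± 251 CPM in Adult, nearly all of it miR-28-5p in Sperm.

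For miR-211 and miR-204b the ratio was 1.63, 1.46 and 0.781 in Infant 31a, 31b and 30, 0.124 to 0.269 in Pre-puber, 0.0954 to 0.198 in Puber and 0.0372 to 0.0791 in Adult. In Sperm 1, 2, 3 and 4 it was 0.153, 0.107, 0.135 and 0.121, above every Adult library, with a log2 ratio 1.08 higher in Sperm. Both miRNAs had lower means in Sperm, where the pair summed to 166 ± 160 CPM, against 963 ± 418 CPM in Adult. The ratio as a measure was chosen after the levels were seen, so these differences between Sperm and Adult are a description, with no test.

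**Figure D4:**
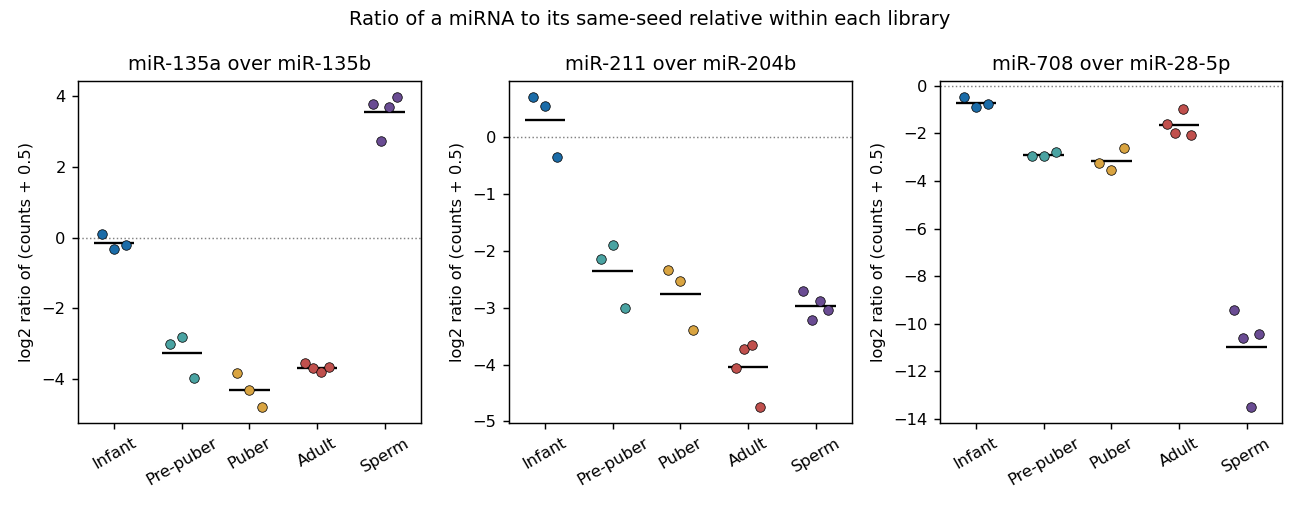
log2 ratio of the counts of a miRNA to those of its same-seed relative, each with 0.5 added, in every library by stage; points are libraries, lines are group means and the dotted line marks equal counts. miR-135a over miR-135b is near 0 in Infant, at -3.68 in Adult and at 3.55 in Sperm on average, and miR-708 over miR-28-5p is at -0.70 in Infant, -1.65 in Adult and -10.98 in Sperm.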

How the data were processed

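The members and lists were chosen with earlier results of these data known. The submitters' processing notes name Trimmomatic, a read trimmer, and genome build EquCab3.0. No aligner or counting program is named in the sources used here. Whole read counts for 1763 entries were deposited, and the deposited RPM columns equal count over column total within 0.005 RPM. Each column was tied to the sample whose title has its number. Since Adult 4 and Sperm 4 have the same one, the column prefix se was taken to mark sperm, an inference. A column of totals was not used here. Of 302 annotated entries the one with most counts was kept per name (274), and 1461 predicted hairpins entered only an alternative. Tests used edgeR 4.0.16 in R 4.3.3 (filterByExpr, TMM, quasi-likelihood F test, adjusted p under 0.05): 13 testis libraries in 1 fit (184 miRNAs) and Adult with Sperm in another (162). These fits were scaled separately from the levels shown, which come from 1 TMM scaling of all 17 libraries. Standard errors derive from the F statistic. Alternatives included DESeq2 1.42.0, limma-voom 3.58.1, other scalings and leaving out each library. Scripts were tested on simulated data.

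Besides the 5 miRNAs, named were their relatives, the 3 most alike miRNAs of each (Pearson's r of log2 level plus 0.5, mean of at least 10 CPM in some group), up to 10 miRNAs above the lowest-placed of the 5 by Adult to Infant ratio, and the 3 largest rises and falls in Sperm with a mean of at least 50 CPM and no overlap. Floors for 0 counts use 3 counts and cover counting error only.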

Additional observations from a re-analysis of the deposited data

Results flagged for a closer look

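Among groups of 4 libraries, 3 of 25 sets of values held a library whose gap to the nearest other exceeded Dixon's critical value. Chance flags about 5% of groups where values are normally distributed, which these levels need not be. miR-1298 was at 142 CPM in Adult 20, against 16.7 to 26.5 CPM in the other Adult libraries. miR-135b was at 183 CPM in Sperm 2, against 38.5 to 60.1 CPM in the other Sperm libraries. miR-876-5p was at 0.447 CPM (3 counts) in Adult 4 and at 0 in the other Adult libraries, where any value above 0 would have been flagged.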

How the results depend on the processing

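The alternatives for Sperm against Adult reuse the Adult libraries of the choice, so they check the processing and are no independent evidence. miR-135a, miR-708 and miR-1298 kept direction and call in Sperm against Adult under all 16 alternatives run, with log2 fold changes of 3.40 to 5.33, -8.03 to -5.98 and -4.49 to -2.33. That of miR-211 passed the threshold at -2.64 without scaling, -1.25 with upper quartiles, -1.64 with RLE scaling or DESeq2, -1.19 without the filter, -2.15 with all entries and -1.55 with all 17 libraries, and was -1.71 to -0.71 leaving out 1 library at a time. Adult to Infant log2 ratios without scaling, and with the total of all entries, were -3.21 and -3.35 for miR-135a, -2.38 and -2.49 for miR-211, -2.19 and -2.31 for miR-873, and 0.29 and 0.14 for miR-708; that of miR-1298 was -5.25 to -3.72 leaving out 1 library at a time, and its Sperm to Infant ratio -7.53 with RLE scaling.

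Calls in Adult against Infant were 95 (48 higher, 47 lower), and 150 with all entries (30 and 120), where the cause was not tested; without scaling they split 84 and 21, and with upper quartiles 40 and 65. Calls in Pre-puber against Infant were 44 (29 and 15), 26 with these groups alone and 29 with libraries sharing a title number summed (25 and 4), 36 and 5 without scaling, and 39 and 7 with all entries. Calls in Puber against Infant were 67 (39 and 28), 131 with all entries (31 and 100), and 56 and 11 without scaling. Calls in Sperm against Adult split 47 and 78 with all entries and 58 and 84 with all 17 libraries. Relatives that took the other sign in Adult against Infant were miR-135b (0.36) and miR-151-5p (0.68) without scaling, miR-204b with all entries (-0.75), and miR-28-5p with upper quartiles (-0.36), no filter (-0.10), all entries (-1.79) and these groups alone (-0.17). Leaving out 1 library gave -0.13 to 0.22 for miR-28-5p and -0.62 to 0.13 for miR-151-5p, which was at -0.048 in Sperm against Adult without scaling.

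No paired analysis was possible because the groups compared share fewer than 2 title numbers. Sperm levels of miR-873, miR-708 and miR-1298 rest on 7, 9 and 22 counts over 4 libraries. Leaving Pre-puber 14 out of the fits of Adult and Puber against Infant, and the ratios within a library, were chosen after seeing the data.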
